A study of Mus musculus with 8 samples.

Results

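The 40 genes described here belong to the response to protein-folding stress in the endoplasmic reticulum (ER) and to the integrated stress response. They were chosen by name, as chaperones, genes of ER-associated degradation (ERAD), stress sensors and targets of the transcription factor ATF4, and 40 of 40 were found by symbol among the 16640 genes of the authors' deposited table. The samples were livers of mice aged 1 year on a chow diet, 4 labelled WT and 4 labelled liver-specific Huwe1 KO (KO below), profiled by bulk RNA sequencing. Huwe1 is the gene of a HECT-domain ubiquitin ligase. The labels name no sex, strain, promoter or Cre line, so the cells that carry the deletion are known here only as liver.

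The ER folds secreted and membrane proteins, and the liver, which makes most plasma proteins, keeps a large folding capacity. When unfolded proteins accumulate, the membrane sensors IRE1 (Ern1), PERK (Eif2ak3) and ATF6 (Atf6) act through the transcription factors XBP1, ATF4 and the cleaved form of ATF6 to raise chaperones and ERAD, which returns misfolded proteins to the cytosol for ubiquitin-dependent destruction. PERK, and GCN2 (Eif2ak4) during amino acid shortage, phosphorylate the initiation factor eIF2, which lowers protein synthesis while ATF4 and its targets CHOP (Ddit3), Atf5 and Trib3 are made. XBP1 splicing, ATF6 cleavage and eIF2 phosphorylation are not visible in gene-level RNA values and were not measured here.

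Of the 40 genes, 2 were higher and 1 was lower in KO at an adjusted p under 0.05, the threshold for a call below, by the authors' deposited table, which is 7.50% of them. Over all genes the same threshold called 9.97%, with 4.41% higher and 5.56% lower. Among the 32 members with a mean of both group values of 100 or more, 2 were called, 6.25% of them, where 15.0% of all genes at that level were. An unadjusted p under 0.05 was reached by 8 members (20%), against 20.5% of all genes. These shares are near or under the background. The median log2 fold change of the 40 was -0.05, with 16 above 0 and 24 below, against a median of 0.02 over all genes. Centring on the most abundant eighth of genes turns the sign of that median, to 0.03, and takes the higher share of all called genes from 44.2% to 65.1%. The 3 called genes were the ERAD gene Derl3 and the CHOP gene Ddit3, both higher, and Atf5, lower.

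The deposited table gives 1 expression value per gene and group, read here as normalized reads, so no value per liver, SD or overlap between livers can be shown. The ratio of these values matches the deposited fold change, so they may derive from it and may not be plain means over livers. The group values sum to 17347886 for WT and 17533080 for KO. The standard error (SE) given with a log2 fold change is the one that the deposited p implies, and intervals are 95% intervals from it. Huwe1 itself stood at 2666 in WT and 1784 in KO in the authors' deposited table, with -0.58 as the log2 fold change and an adjusted p of 0.000425. In bulk tissue, fewer cells of a type and less RNA per cell cannot be told apart, for Huwe1 as for each gene below. Defining hepatocyte transcripts were present in both groups, with Alb at 1192100 in WT and 1629600 in KO in that deposited table, and of 7 hepatocyte markers Hnf4a and Serpina1a were called higher and Apoa2 lower. That is 42.9% of the 7, where 15.0% of all genes with a mean of 100 or more were called. Markers of pancreatic acinar cells, another cell rich in ER, were near 0, with 6 of 6 at a value under 1 in both groups.

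**Figure D1:**
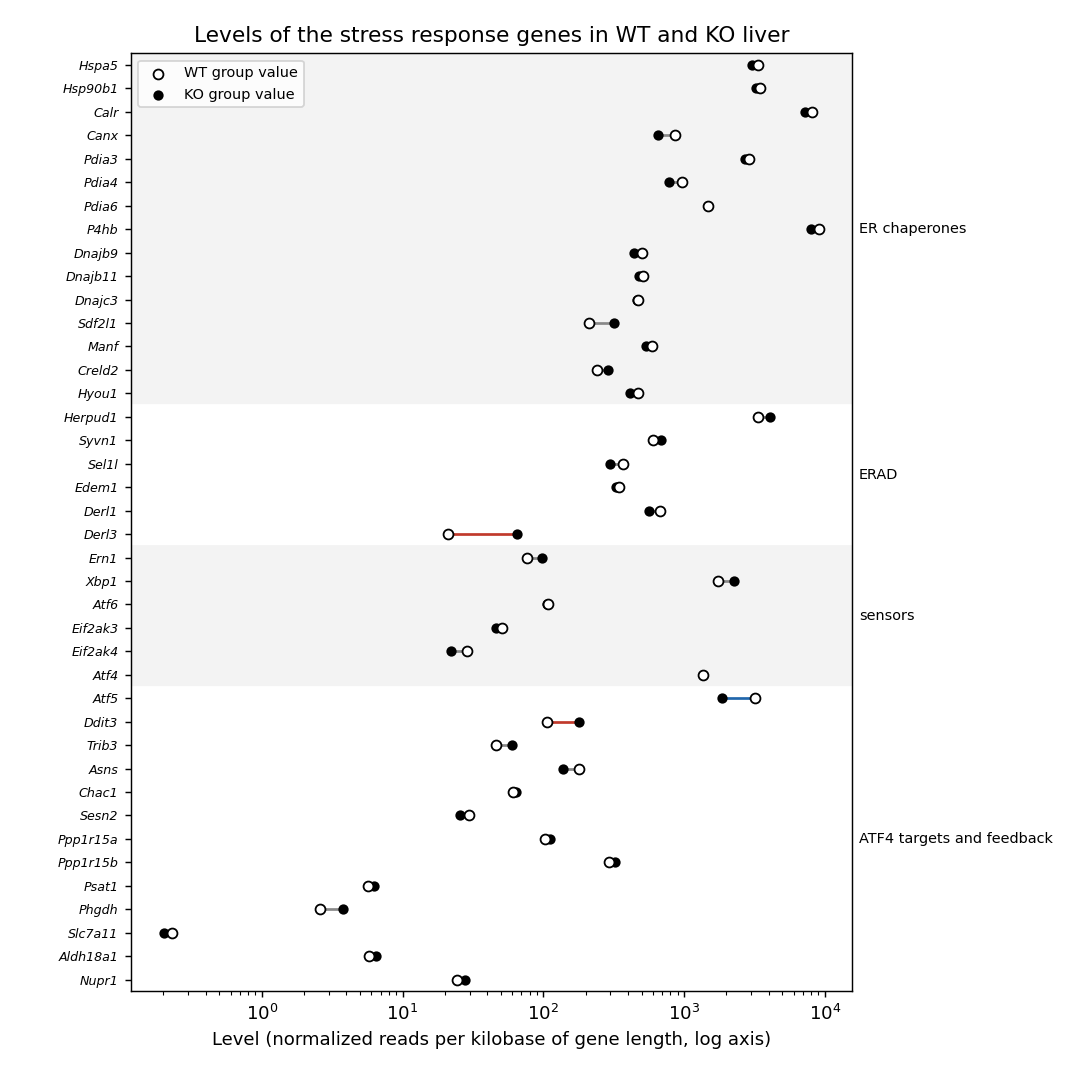
Level of each of the 40 genes in WT (open circles) and KO (filled circles) as normalized reads per kilobase of gene length, on a log axis; the x positions are the authors' group values divided by length, and lines are red or blue where the adjusted p was under 0.05. The levels run from 0.23 for Slc7a11 to 9100 for P4hb in WT, and the circles of most genes lie close together.

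Chaperones and folding enzymes formed the most abundant arm, and 0 of 15 passed the threshold in DESeq2's deposited result, with 1 (Canx) at an unadjusted p under 0.05. All 15 have a mean of 100 or more, where 15.0% of all genes were called and 29.9% had such an unadjusted p. Per kilobase of gene length, the highest WT levels were those of P4hb, a protein disulfide isomerase, at 9100, calreticulin (Calr), a lectin chaperone of glycoproteins, at 8086, and Hsp90b1, the ER member of the HSP90 family, at 3468, from the authors' deposited values. The matching KO levels per kilobase were 8014, 7228 and 3262. Of the 15, 13 lay below 0 and 2 above, and the arm's median log2 fold change was -0.14. Among the 8793 genes with a mean of 100 or more, 4678 lay below 0 and the median was -0.02. Summed per kilobase, the 15 genes reached 33220 in WT and 30110 in KO, which is 90.6% of WT.

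Hspa5, the gene of the ER HSP70 chaperone BiP and the usual readout of ER stress, had 8519 normalized reads in WT and 7706 in KO in the authors' deposited table. The log2 fold change was -0.14 (SE 0.23), with an interval from -0.60 to 0.31 and an adjusted p of 0.846 (DESeq2). The interval therefore holds changes of that size in either direction. P4hb had a log2 fold change of -0.18 (interval -0.54 to 0.17), Calr of -0.16 (-0.56 to 0.23) and Hsp90b1 of -0.09 (-0.39 to 0.21) in the deposited table. Calnexin (Canx), the membrane-bound partner of calreticulin, went from 3682 to 2821 by the authors' deposited table, a log2 fold change of -0.38 (SE 0.16) with an unadjusted p of 0.0184 and an adjusted p of 0.125, which missed the threshold. The disulfide isomerases Pdia3, Pdia4 and Pdia6 had deposited log2 fold changes of -0.09, -0.30 and -0.01.

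The J-domain co-chaperones, which stimulate BiP, had values near each other in both groups. Dnajc3 had 2427 normalized reads in WT and 2423 in KO in the authors' deposited table, Dnajb11 had 1069 and 1001, and Dnajb9 had 945 and 821. Hyou1, a nucleotide exchange factor of BiP, had a value of -0.19 on the log2 scale in that deposited table, and Manf, a secreted stress protein of the ER, one of -0.14. The 2 members above 0 were Sdf2l1, which works with Dnajb11 on BiP, at 237 in WT and 356 in KO, and Creld2, an ER protein of the same response, at 329 and 392.06 by the authors' deposited table. Neither passed (adjusted p of 0.380 and 0.818, DESeq2), and their implied SE of 0.36 each was the widest of the arm. The interval of Sdf2l1 ran from -0.12 to 1.29.

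**Figure D2:**
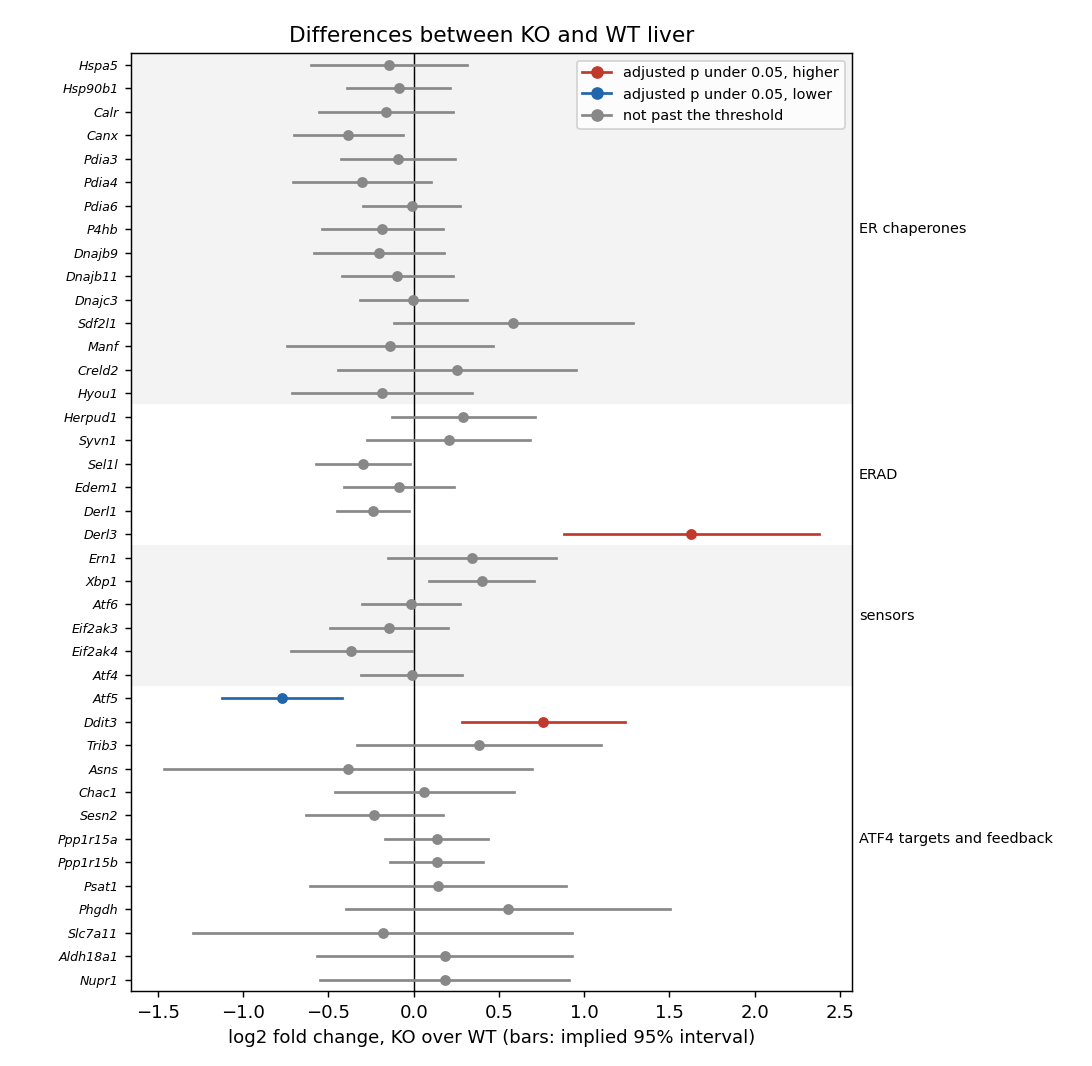
log2 fold change of KO over WT for the 40 genes, grouped by arm, with the implied 95% interval as a bar; red and blue mark an adjusted p under 0.05. Derl3 and Ddit3 lie to the right of 0 and Atf5 to the left, and the intervals of Canx, Sel1l, Derl1, Xbp1 and Eif2ak4 also leave out 0 although their adjusted p missed the threshold.

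Several of these genes carry the ER stress element (ERSE) in their promoters, which is shown because it is the site that the cleaved form of ATF6, with the factor NF-Y, is known to use. Promoters of RefSeq (GRCm38.p6), from 250 bases before to 50 bases after the gene start, were found for 35 of the 40 genes. The exact element, CCAAT, 9 bases and CCACG on either strand, occurred in 9 of the 35 (25.7%), against 23 of 13190 genes of the table with a promoter (0.174%). The members were chosen by name as genes of this response, so their higher share of such elements is background and not a result. Each element is printed 5′ to 3′ along the motif with 8 bases on each side, the element in capitals. Hsp90b1 has a pair of them, and in Calr, Derl3, Creld2 and the second element of Hsp90b1 the motif lies on the strand opposite to the gene.
Hspa5: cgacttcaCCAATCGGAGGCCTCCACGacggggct
Calr: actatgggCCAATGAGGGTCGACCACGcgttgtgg
Derl3: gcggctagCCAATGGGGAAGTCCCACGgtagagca
Hsp90b1: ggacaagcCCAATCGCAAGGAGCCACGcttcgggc
Hsp90b1: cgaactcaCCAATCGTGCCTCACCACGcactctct
Canx: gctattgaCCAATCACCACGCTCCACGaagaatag
Pdia6: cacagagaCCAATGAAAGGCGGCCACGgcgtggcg
Dnajc3: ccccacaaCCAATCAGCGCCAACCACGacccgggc
Creld2: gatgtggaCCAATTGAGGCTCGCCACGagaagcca
Syvn1: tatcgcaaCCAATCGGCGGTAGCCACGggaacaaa

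The promoters of Hspa5 and Derl3 are shown at greater length because both hold the element, the first in the usual readout of ER stress and the second in the called gene. The 250 bases before the start lie at chr2:34771840-34772089 for Hspa5 and at chr10:75893148-75893397 for Derl3, both on the plus strand of GRCm38.p6, with the element in capitals. The element begins 65 bases before the start of Hspa5 and 156 before that of Derl3, where it is read on the opposite strand.
Hspa5: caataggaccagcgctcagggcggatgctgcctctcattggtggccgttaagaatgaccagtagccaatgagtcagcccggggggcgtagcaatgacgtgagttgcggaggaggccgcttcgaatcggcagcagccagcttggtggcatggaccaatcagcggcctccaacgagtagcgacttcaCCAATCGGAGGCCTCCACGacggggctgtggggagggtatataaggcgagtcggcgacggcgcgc
Derl3: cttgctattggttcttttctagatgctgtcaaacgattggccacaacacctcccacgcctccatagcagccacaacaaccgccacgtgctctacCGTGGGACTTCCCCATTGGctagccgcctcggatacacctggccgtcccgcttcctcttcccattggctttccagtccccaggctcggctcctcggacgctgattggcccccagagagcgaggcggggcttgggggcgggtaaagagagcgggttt

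The 9 genes with the element did not share a direction. Derl3 was called higher and 0 were called lower by the authors' deposited table, 3 lay above 0 and 6 below, and their median log2 fold change was -0.01. Over all 23 genes of the table with the element, 1 rose and 1 fell, the latter being the acetyl-CoA carboxylase gene Acacb (2563 in WT, 390.6 in KO), and 8.70% were called, near the 9.97% of all genes. A short form named ERSE-II, ATTGG, 1 base and CCACG, occurred in 2 of the 35 promoters (5.71%) and in 0.0682% of all, and it is shown for both.
Herpud1: gggcgctgATTGGGCCACGttggacac
Dnajb11: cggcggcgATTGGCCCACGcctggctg
Another element known for XBP1 and ATF6, TGACGTGG, occurred in 0 of the 35 and in 0.963% of all promoters of the same length.

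**Figure D3:**
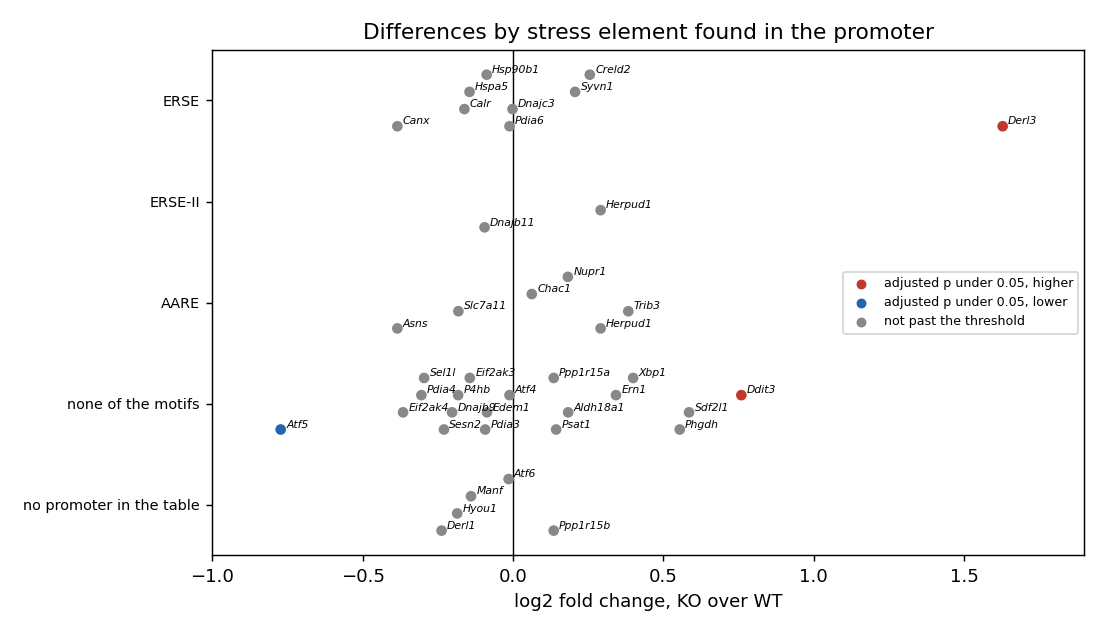
log2 fold change of KO over WT for members whose promoter holds ERSE, ERSE-II, the amino acid response element (AARE) or none of these, and for the 5 members without a promoter in the RefSeq table; Herpud1 appears under both ERSE-II and AARE. Among the 9 genes with ERSE, Derl3 at 1.63 stands alone and the others lie from -0.38 to 0.25.

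In the ERAD arm, Derl3 alone of 6 was called, and it was higher, by the authors' deposited table. That is 16.7% of the arm, where 13.1% of all genes with a mean of 10 or more were called. Derl3 encodes a derlin, a membrane protein that helps to pass misfolded proteins out of the ER. Its level was 27.8 normalized reads in WT and 86.0 in KO in the authors' deposited table, 3.09-fold higher. The log2 fold change was 1.63 (SE 0.38, interval 0.88 to 2.38) with an adjusted p of 0.000646 (DESeq2). Derl3 (Entrez ID 70377) lies on chromosome 10, 75893398 to 75895941 in GRCm38.

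Neither of the other derlins rose. Derl1 went from 2108 to 1787 by the authors' deposited table, a log2 fold change of -0.24 with an adjusted p of 0.156 that missed the threshold. Derl2, from the list of other ERAD genes, fell from 1795 to 1308 (log2 fold change -0.46, adjusted p = 0.00300 in the deposited DESeq2 result). Per kilobase of length, Derl3 was still the lowest of the family, at 21.2 in WT and 65.5 in KO, where Derl1 had 670 and 568 and Derl2 had 489 and 356. Its share of the family's summed level per kilobase was 1.80% in WT and 6.62% in KO.

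Derl3 is known from cells with a large secretory load, plasma cells among them, so the markers of other cells are given beside it. Of 5 B and plasma cell markers, all 5 lay above 0 and 1 was called higher by the authors' deposited table, and the summed level of the list was 128 in WT and 274 in KO. The one that rose was Jchain, the joining chain of secreted antibodies, from 69.7 to 208 (log2 fold change 1.58, adjusted p = 0.000471). The plasma cell genes Mzb1, at 6.32 in WT and 9.99 in KO, and Tnfrsf17, at 0.784 and 0.990, were not called by the authors' deposited table, and the B cell genes Cd79a (36.9 and 38.1) and Cd79b (14.7 and 17.4) were not called either. Immunoglobulin heavy and light chain genes were not used here. Of 5 neutrophil markers, 4 had an unadjusted p under 0.05 and S100a9 and Retnlg rose by the authors' deposited table, and the list summed to 107 in WT and 226 in KO. The remaining one, Ly6g, lay below 0, with 7.52 in WT and 5.02 in KO (log2 fold change -0.58, adjusted p = 0.628, DESeq2). The share called was 20% of the B and plasma cell markers and 40% of the neutrophil markers. Over all genes 9.97% were called, and 20.5% had an unadjusted p under 0.05. No marker of Kupffer cells and macrophages (6), endothelium (5), stellate cells (5), bile ducts (4) or T and NK cells (4) passed in DESeq2's deposited result, none of them with an unadjusted p under 0.05. The part of these cells in the value of Derl3 was not tested.

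**Figure D4:**
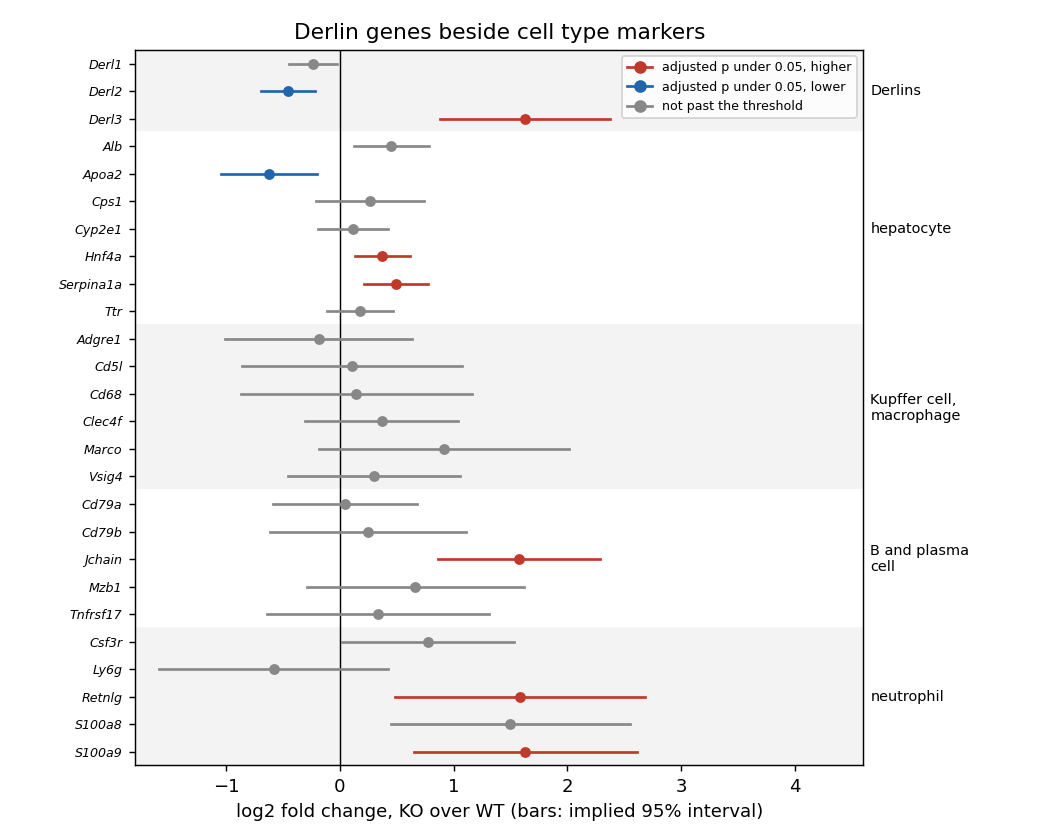
log2 fold change of KO over WT, with the implied 95% interval as a bar, for the derlin genes and for markers of hepatocytes, macrophages, B and plasma cells and neutrophils. Derl3 (1.63) and the called markers Jchain (1.58), S100a9 (1.63) and Retnlg (1.58) lie at similar distances to the right of 0. The neutrophil marker S100a8, not called, lies near them. The B and plasma cell markers Cd79a, Cd79b, Tnfrsf17 and Mzb1 and the neutrophil marker Csf3r lie less far to the right. Their values run from 0.045 (Cd79a) to 0.776 (Csf3r), and none of them was called. Derl1, Derl2 and the neutrophil marker Ly6g (-0.58) lie to the left.

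The remaining ERAD members form the ligase complex and its helpers. Herpud1, which assembles the complex at the ER membrane and whose promoter holds ERSE-II, had the highest level of the arm per kilobase, 3354 in WT and 4104 in KO, with 6554 and 8019 normalized reads in the authors' deposited table. Its log2 fold change was 0.29 (interval -0.13 to 0.71) and did not pass (adjusted p = 0.517, DESeq2). Syvn1, the gene of the ubiquitin ligase HRD1, had 1954 and 2253 normalized reads in the deposited table, with 0.21 as the log2 fold change (SE 0.24, interval -0.27 to 0.68) and an adjusted p of 0.758. Sel1l, the adaptor that stabilises HRD1, went from 2287 to 1862 (log2 fold change -0.30, unadjusted p = 0.0359, adjusted p = 0.198, DESeq2), and Edem1, a lectin that picks glycoproteins for disposal, from 2036 to 1916 by the authors' deposited table. The ligase and its adaptor thus had point values on opposite sides of 0, neither past the threshold.

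Among 21 other ERAD genes, 3 were called lower and 0 higher by the authors' deposited table, which is 14.3%. All 21 have a mean of 100 or more, where 15.0% of all genes were called, so the share is near the background. Svip, which encodes a small inhibitor of ERAD that binds VCP, fell from 198 to 107 (log2 fold change -0.89, SE 0.18, adjusted p = 4.92e-05). Vcp, the ATPase that pulls ERAD substrates from the membrane, fell from 5814 to 4424 (log2 fold change -0.39, adjusted p = 0.00218), and Derl2, given above, was the other one. The median of the 21 was -0.04.

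No sensor passed the threshold in DESeq2's deposited result, 0 of 6, with Xbp1 and Eif2ak4 at an unadjusted p under 0.05. At a mean of 100 or more, where all 6 sensors lie, 15.0% of all genes were called and 29.9% had such an unadjusted p. Xbp1, whose spliced RNA encodes the active factor, was the most abundant of them per kilobase, at 1730 in WT and 2281 in KO. It had 3913 normalized reads in WT and 5160.2 in KO in the authors' deposited table, a log2 fold change of 0.40 (SE 0.16, interval 0.09 to 0.71) with an adjusted p of 0.0873. This is total Xbp1, and its spliced share was not measured here. Where fold changes were centred on the most abundant eighth of genes, which shifts them by 0.08, its adjusted p was 0.0255 and it passed. Ern1, which splices Xbp1, had 305 and 387 (log2 fold change 0.34, adjusted p = 0.515) in the authors' deposited table.

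The sensors of the other branches and Atf4 had values below 0, and the arm's median was -0.01, or 0.07 under the same centring. Atf6 had 801 normalized reads in WT and 793 in KO in the authors' deposited table, with an interval from -0.30 to 0.27. Eif2ak3, the PERK gene, had 221 and 200, and Eif2ak4, the GCN2 gene, 144 and 111 (log2 fold change -0.37, unadjusted p = 0.0439, adjusted p = 0.226, DESeq2). Atf4, which is controlled mainly by translation, stood at 2281 and 2262 in the authors' deposited table, a log2 fold change of -0.01 with an interval from -0.31 to 0.28. Of 12 other genes of the eIF2 machinery, Gcn1l1, the partner through which GCN2 senses stalled ribosomes, rose from 925 to 1139 (log2 fold change 0.30, adjusted p = 0.0195) and 0 fell in the deposited table. That is 8.33% of the 12, all with a mean of 100 or more, where 15.0% of all genes were called. Of 10 further factors and proteases of ER stress, such as Creb3l3, a liver-enriched relative of ATF6 at 4999 and 5353 in the authors' deposited table, 0 passed and 0 had an unadjusted p under 0.05 (DESeq2). Of 7 transcripts known to be cut by IRE1, 0 passed and 1 (Col6a1) had an unadjusted p under 0.05 in the same deposited result. Among all genes with a mean of 10 or more, 13.1% were called and 26.4% had such an unadjusted p. That level was reached by 8 of the 10 factors and proteases and by all 7 IRE1 transcripts.

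The targets and feedback genes of ATF4 held 1 called higher and 1 called lower among 13 by the authors' deposited table, and their median was 0.14 on the log2 scale. The share called was 15.4%, near the 13.1% of all genes with a mean of 10 or more. Ddit3, the gene of CHOP, a transcription factor that links lasting stress to cell death, rose from 93.4 to 158 normalized reads by the authors' deposited table, 1.69-fold. Its log2 fold change was 0.76 (SE 0.24, interval 0.28 to 1.24) with an adjusted p of 0.0240 (DESeq2). Ddit3 (Entrez ID 13198) lies on chromosome 10, 127290793 to 127296291 in GRCm38.

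Atf5, a relative of ATF4 that is abundant in liver, went the other way. It fell from 5563 to 3255 normalized reads by the authors' deposited table, 1.71-fold lower. The log2 fold change was -0.77 (SE 0.18, interval -1.12 to -0.42) with an adjusted p of 0.000557 (DESeq2). It had the highest level of its arm per kilobase, 3173 in WT and 1857 in KO. Atf5 (Entrez ID 107503) lies on chromosome 7, 44812256 to 44816658 in GRCm38, where GENCODE M21 annotates overlaps of 571 bases with Nup62 and 272 bases with Il4i1 on the opposite strand. Those neighbours were lower in level, with 165 and 135 for Nup62 and 7.06 and 5.75 for Il4i1 in the authors' deposited table. Ddit3 overlaps Mars by 68 bases on the opposite strand, and Mars had 1027 in WT and 918 in KO in the same deposited table. No source used here says whether reads were counted by strand, so overlapping genes cannot be told apart where they overlap, and GENCODE places another gene, transcript or pseudogene over 19 of the 40 members, Atf5 and Ddit3 included.

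The remaining 11 members of the arm did not pass, and several had wide intervals. Trib3, a pseudokinase induced by CHOP and ATF4, had 94.3 in WT and 123 in KO in the authors' deposited table (interval -0.34 to 1.10). Chac1, which degrades glutathione, had 96.3 and 101 (interval -0.46 to 0.59), and Asns, the asparagine synthetase gene, 349 and 267 with the widest interval but one of the arm, -1.46 to 0.70. The regulatory subunits that bring a phosphatase to eIF2 had log2 fold changes that did not pass, with 239 and 263 for the inducible Ppp1r15a and 1634 and 1795 for the constitutive Ppp1r15b in the authors' deposited table. Ppp1r15b, at 292 and 321 per kilobase, had an interval from -0.14 to 0.41 and an adjusted p of 0.702 (DESeq2). Sesn2, a stress-induced inhibitor of mTORC1 signalling, had 79.8 and 68.1.

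The other 5 members had the lowest group values of the arm. The serine synthesis genes Psat1 and Phgdh had 12.3 and 13.5, and 4.84 and 7.10, normalized reads in WT and KO in the authors' deposited table. Aldh18a1, of proline synthesis, had 20.3 and 23.0, and the stress-induced cofactor Nupr1 had 15.6 and 17.7. Slc7a11, the cystine transporter gene, had 2.11 and 1.86 in the deposited table, and with Phgdh it makes the 2 members with a mean under 10. The implied interval of Slc7a11 ran from -1.29 to 0.93. The implied SEs of these 5 ran from 0.37 (Nupr1) to 0.57 (Slc7a11), so a difference was not detectable unless large. Even so, intervals at these levels may be too narrow.

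The amino acid response element (AARE), the composite site through which ATF4 and C/EBP partners are known to act, is printed for these targets in the same way. The core TGATGNAAN, which includes the reverse complement of ATTGCATCA, occurred in 6 of the 35 promoters (17.1%) against 3.09% of all genes of the table with a promoter. As with ERSE, the members were chosen by name, so the higher share is background and not a result. The core was found in 5 of the ATF4 targets and in Herpud1, and Slc7a11 has a pair on opposite strands.
Chac1: ggcaggagTGATGCAACggcaggga
Trib3: cgcccggcTGATGTAAAcctgagct
Slc7a11: catgtggcTGATGCAAAcctggaga
Slc7a11: ctgcatgaTGATGCAAAttctccag
Asns: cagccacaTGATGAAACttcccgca
Nupr1: gccctgtcTGATGCAATctggccct
Herpud1: gtgcgggcTGATGCAACccgccgtg
The exact form ATTGCATCA was found in Nupr1 alone among the 35 (2.86%), against 0.174% of all genes. Of the 6 genes with the core, 0 were called by DESeq2 in the authors' deposited table and 0 had an unadjusted p under 0.05, with values on the log2 scale from -0.38 for Asns to 0.38 for Trib3. Neither Ddit3 nor Atf5 holds any of these elements in the windows searched, which says only that these letters are not there.

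A wider list of 34 genes known as ATF4 or CHOP targets also held genes called in both directions, with 3 called higher and 5 called lower by the authors' deposited table (23.5%, where 9.97% of all genes were called). Of the 34, 30 had a mean of 10 or more, where 13.1% of all genes were called, and 15.0% were at a mean of 100 or more. Mthfd1l, a mitochondrial enzyme of one-carbon metabolism, rose from 20.4 to 62.8 (log2 fold change 1.62, adjusted p = 4.91e-08), and Pck2, the mitochondrial form of phosphoenolpyruvate carboxykinase, from 44.1 to 94.985 (1.11, adjusted p = 0.00810). Bcl2l11, the gene of the killer protein BIM, rose from 98.9 to 219 (1.15, adjusted p = 1.98e-05), while Bbc3, the gene of PUMA, fell from 212 to 73.9 (-1.52, adjusted p = 0.000786) by the authors' deposited table. BIM and PUMA act at the same step of cell death and are both known to be raised by CHOP, and here they went in opposite directions.

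The other falls of that list were in amino acid and one-carbon metabolism. Gpt2, the mitochondrial alanine aminotransferase, fell from 8859 to 4707 (log2 fold change -0.91, adjusted p = 5.20e-11) by the authors' deposited table. Shmt2, the mitochondrial serine hydroxymethyltransferase, fell from 5897 to 4446 (-0.41, adjusted p = 0.0327), Cth, which makes cysteine, from 6605 to 4721 (-0.48, adjusted p = 0.0414), and the neutral amino acid transporter gene Slc1a4 from 120 to 66.7 (-0.85, adjusted p = 0.0246) by the authors' deposited table. The secreted stress factors Fgf21, at 58.0 in WT and 25.1 in KO, and Gdf15, at 214 and 318, missed the threshold by the authors' deposited table (adjusted p of 0.0903 and 0.640). Atf3, another bZIP factor of the pathway, had 58.3 and 72.6 and did not pass either. Of 20 cytosolic tRNA synthetases, which ATF4 is known to induce in part, 2 fell and 0 rose in the deposited table. That is 10% of them, all with a mean of 100 or more, where 15.0% of all genes were called. Tars, of threonine, fell from 1596 to 965 (log2 fold change -0.72, adjusted p = 0.00332) and Farsb, of phenylalanine, from 493 to 323 (-0.61, adjusted p = 0.00353).

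**Figure D5:**
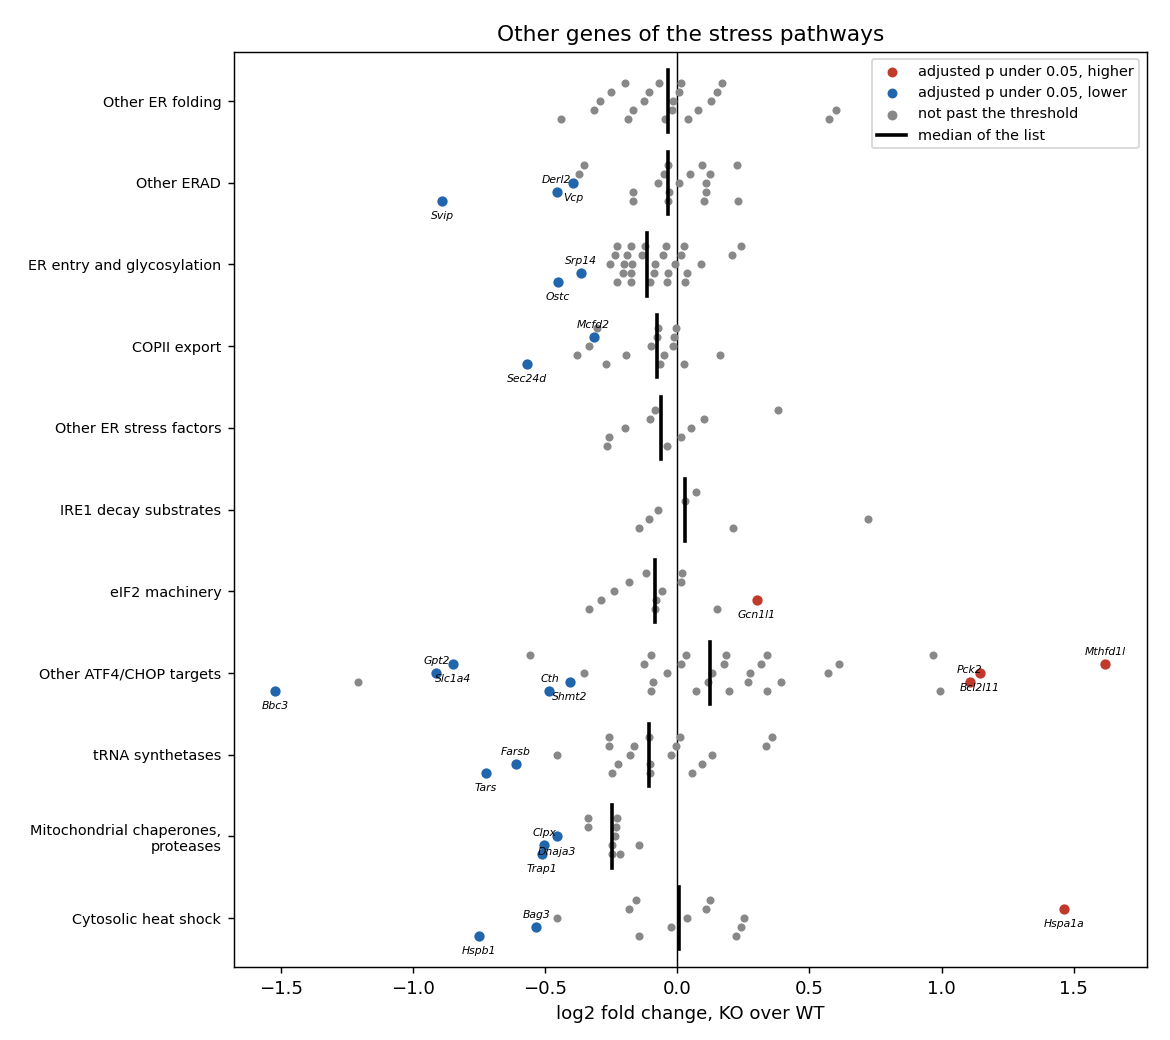
log2 fold change of KO over WT for 199 other genes in 11 lists of the stress pathways, 1 point per gene, with the list median as a black bar and names for genes at an adjusted p under 0.05. In all, 5 genes lie to the right and 19 to the left among the coloured points, and the medians lie between -0.25 and 0.12.

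The secretory path around these chaperones was also mostly below the threshold. At a mean of 100 or more, 15.0% of all genes were called and 29.9% had an unadjusted p under 0.05. Of 22 other ER folding genes, all at that level, 0 passed in DESeq2's deposited result, and 5 had an unadjusted p under 0.05, 2 above 0 and 3 below. The 2 above 0 were the disulfide isomerase Pdia5, at 754 in WT and 1144 in KO (adjusted p = 0.0697), and the prolyl isomerase Fkbp11, at 136 and 203 (adjusted p = 0.175), values of the authors' deposited table. The 3 below 0 were Tor1a, at 927 in WT and 757 in KO (adjusted p = 0.0567), Hspa13, at 428 and 316 (adjusted p = 0.0864), and Cnpy3, at 879 and 706 (adjusted p = 0.241), by the same deposited DESeq2 result. Of 30 genes of ER entry and glycosylation 2 fell and 0 rose, 6.67% of them against the 15.0% of all genes with a mean of 100 or more. The signal recognition particle gene Srp14 fell from 483 to 376 (log2 fold change -0.36, adjusted p = 0.0226) and Ostc, of the oligosaccharyltransferase, from 690.05 to 504 (-0.45, adjusted p = 0.0291). Of 17 genes of COPII export, which carries cargo from the ER to the Golgi, 2 were called lower and 0 higher by the authors' deposited table, 11.8% of them against the same 15.0%. Sec24d, a cargo adaptor of the coat, fell from 1199 to 808 (log2 fold change -0.57, SE 0.09, adjusted p = 2.96e-08) and Mcfd2, a cargo receptor subunit, from 2724 to 2187 (-0.32, adjusted p = 0.0399). Over all 199 genes of these lists 5 rose and 19 fell, 12.1% of them against 9.97% of all genes, with a median log2 fold change of -0.08. Of the 199, 193 had a mean of 10 or more, where 13.1% of all genes were called, 700 higher and 911 lower. The share called is thus near the background.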

How the data were processed

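Liver RNA of 4 WT and 4 KO mice was column-purified, and a commercial provider made and sequenced the libraries, per the labels' protocols. Groups follow the genotype in the labels. The submitters' processing notes name the mm10 build and DESeq2, while the aligner, the counting step with its use of strand, and filters on genes are unstated there and in the labels. In the single table that the authors deposited, the expression columns hold a depth-normalized signal per gene and group, the log2 column the log2 fold change (KO to WT), and the p-value columns the raw p and its adjusted form, per the file headers. The log2 ratio of the expression columns matched the deposited fold change to within 4.71e-08, and a Benjamini-Hochberg adjustment of the p-value column over 16640 genes matched the adjusted one to within 1.74e-06. The first match may mean only that the group values and the fold changes derive from each other. Among 707 genes with a mean under 0.2 no log2 fold change exceeded 0.12 in size, so folds of scarce genes may be understated. The same limit holds for the group values of scarce genes, whose ratio is that fold. The largest implied SE of any gene was 0.567, so the implied intervals of scarce genes may likewise be too narrow.

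Counts per liver were not analysed here, so the model planned for counts could not be fitted and a gene is called where the authors' adjusted p, taken over all genes, is under 0.05. The SE was computed as the size of the log2 fold change over the standard normal quantile of its two-sided p, which assumes a Wald test, and it cannot separate animal from technical spread. Levels per kilobase divide the deposited value by the deposited gene length. The 40 members and all lists were chosen with earlier results of these data known. Genes were named by rule: members with an unadjusted p under 0.05, the 3 highest of each arm per kilobase, and called genes of the 11 pathway lists. Other members are given by values or ranges, and some uncalled genes of the lists are given by value outside that rule. List symbols were matched by symbol (285) or by a RefSeq synonym (2) out of 287, and 1 marker gene is not reported here. The ERSE-II motif was added later, and Acacb was named after its value was seen. Protein sequences were not used here. Motifs were searched on both strands, and overlapping matches were kept. Software was matplotlib 3.10.9, scipy 1.17.1, pandas 2.3.3 and numpy 2.4.6 under Python 3.11.15, and the recomputed adjustment was tested on simulated data. Alternatives were other thresholds, adjustment over genes with a mean of 10 or 100 and more, a 1.5-fold minimum, pseudocounts of 1 and 10 and 2 other centrings.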

Additional observations from a re-analysis of the deposited data

How the results depend on the processing

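Of the 40 members, Atf5 alone was called lower at the settings tried, with an adjusted p between 0.000369 and 0.00283. The count of higher members was 1 in place of 2 at an adjusted p under 0.01, where Ddit3 (0.0240) drops out and the ATF4 arm has 0 higher. It was also 1 when the adjustment ran only over genes with a mean of 100 or more, since Derl3 lies under that level and is not tested, which leaves the ERAD arm with 0 higher. The sensors had 1 higher in place of 0, Xbp1, at an adjusted p under 0.1 (0.0873) and with fold changes centred on the most abundant eighth of genes (0.0255). That centring shifts every log2 fold change by 0.08 and turns the sign of the median of all 40 (to 0.03) and of the sensors (from -0.01 to 0.07). Over all genes, 1659 calls became 975 at an adjusted p under 0.01 and 967 with a 1.5-fold minimum. Over the alternatives run, the median ran from -0.15 to -0.06 for the chaperones, from 0.05 to 0.14 for ERAD and from 0.11 to 0.22 for the ATF4 arm, with no test. No paired analysis was possible because the deposited table holds 1 value per group, and leaving out single livers could not be run for the same reason. Depth per liver is unknown, and the 2 members with a mean under 10 carry implied SEs of 0.49 and 0.57, which may be too small, since that of no gene exceeds 0.567.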

Other observations

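Chaperones outside the ER were listed too. Of 12 chaperones and proteases of mitochondria, 3 were called lower and 0 higher by the authors' deposited table, and 12 of 12 lay below 0, where 795 of the 8793 genes with a mean of 100 or more were called lower and 4678 of them lay below 0. The list had a median log2 fold change of -0.25. Trap1, a mitochondrial HSP90, fell from 3298 to 2312 (adjusted p = 0.00110), Dnaja3, a mitochondrial J-domain protein, from 1482 to 1080 (adjusted p = 0.00811) and Clpx, the unfoldase of the ClpXP protease, from 1060 to 748 (adjusted p = 0.0397), while Hspd1, the gene of HSP60, had 4301 and 3403 and did not pass. Of 14 cytosolic heat shock genes, Hspa1a rose from 19.7 to 54.3 (adjusted p = 0.0252) and Hspb1 and Bag3 fell, from 313 to 186 (adjusted p = 0.000369) and from 1010 to 697 (adjusted p = 0.00786), values of the authors' deposited table. Called were thus 21.4% of the 14, where 13.1% of all genes with a mean of 10 or more were. Hspa1a shares long stretches of sequence with Hspa1b (168 in WT and 200.4 in KO), so the split of reads between that pair is uncertain.

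The deposited annotation offers a second view of the pathway, chosen after the values were seen. Of 67 genes annotated with the response to ER stress, 16 of them among the 40, 3 were called higher and 1 lower by the authors' deposited table (5.97%), where 9.97% of all genes were called. Of 40 annotated with the unfolded protein response of the ER, 4 rose and 2 fell (15.0%). Among all genes with a mean of 10 or more, where 37 of these 40 lie, 13.1% were called. The largest rise in that annotation was that of Bhlha15, from 4.15 to 15.7 (log2 fold change 1.92, adjusted p = 0.00441), the gene of MIST1, a transcription factor known from acinar and plasma cells and other secretory cells. Also called outside the 40 were Ccnd1, higher (339 in WT, 1032 in KO, adjusted p = 1.07e-05, DESeq2), and Derl2 and Vapb, both lower. Of 53 annotated with the ERAD pathway, 1 rose (Derl3) and 4 fell (Derl2, Vcp, Dnajb2 and Sgta) in the authors' deposited table, which is 9.43%, near the 9.97% of all genes.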
